A study of Mus musculus with 8 samples.

Results

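Mouse embryonic stem (ES) cells whose genome copies all come from the father (androgenetic) were compared with ES cells from fertilized embryos. The comparison took the 3 androgenetic and the 3 fertilized arrays of a series of 8, and kept the 12001 of 25697 probes whose signal was above the negative controls (detection p under 0.01) on at least 2 of these 6 arrays. The 11043 kept probes with a gene name stood for 8069 genes, each given by its brightest kept probe. Both kinds of line were derived from blastocysts, of the strain B6129F1. Both are labelled female and male and as holding X and Y chromosomes, and each kind was measured on 1 array at each of passages 6, 7 and 8. The labels do not say whether the passages of a kind are separate lines, so a p-value here measures the spread between passages, which may be technical. Levels are log2 signals after background correction and quantile normalization, and changes are androgenetic minus fertilized, with their standard error. A gene passed the test when its limma p-value, adjusted over all kept probes by the Benjamini-Hochberg method, was under 0.05.

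Androgenetic cells carry the father's imprints on every genome copy and no copy from the mother, so genes that are expressed from the mother's copy alone are expected to be low in them. ES cells in culture are held between self-renewal and differentiation by secreted signals: WNT proteins stabilise beta-catenin, which works with TCF and LEF factors, NODAL and BMP ligands act through SMAD proteins, and FGF4 acts through a receptor tyrosine kinase. Mouse ES cells also divide fast, with a short gap phase before replication, and run glycolysis at a high rate.

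The 2 kinds of cell differed in most genes measured. In all 5955 genes passed the test (73.8% of 8069), 2858 of them higher (35.4%) and 3097 lower (38.4%) in androgenetic cells. The arrays of the groups did not overlap in 6303 genes (78.1%), with all androgenetic arrays above in 37.7% and below in 40.4% of genes. Of the genes that passed, 2306 (28.6%) changed at least 2-fold, 1095 higher and 1211 lower, or 997 and 1065 when genes undetected in a whole group were set at their bound. Correlations across kept probes, which are not independent replicates, were 0.997 within androgenetic arrays, 0.984 to 0.992 within fertilized arrays and 0.855 to 0.861 between kinds. Each array detected 41.3% to 43.5% of its probes.

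Gene lists are therefore read by direction and median, beside a median of -0.038 (quartiles -0.61 and 0.57) over all genes. Where no array of a group detected a gene, its fold is given as "at least", against the lowest log2 signal counted as detected there (6.62 to 6.86). Gene names come from a second table of the authors, whose probes all had a p under 0.05 in 4 or more of the 8 arrays, so genes detected in androgenetic cells alone can lack a name. Of the 958 kept probes without a name, 351 were at least 2-fold higher and 127 at least 2-fold lower. All counts of list members cover named genes only.

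**Figure D1:**
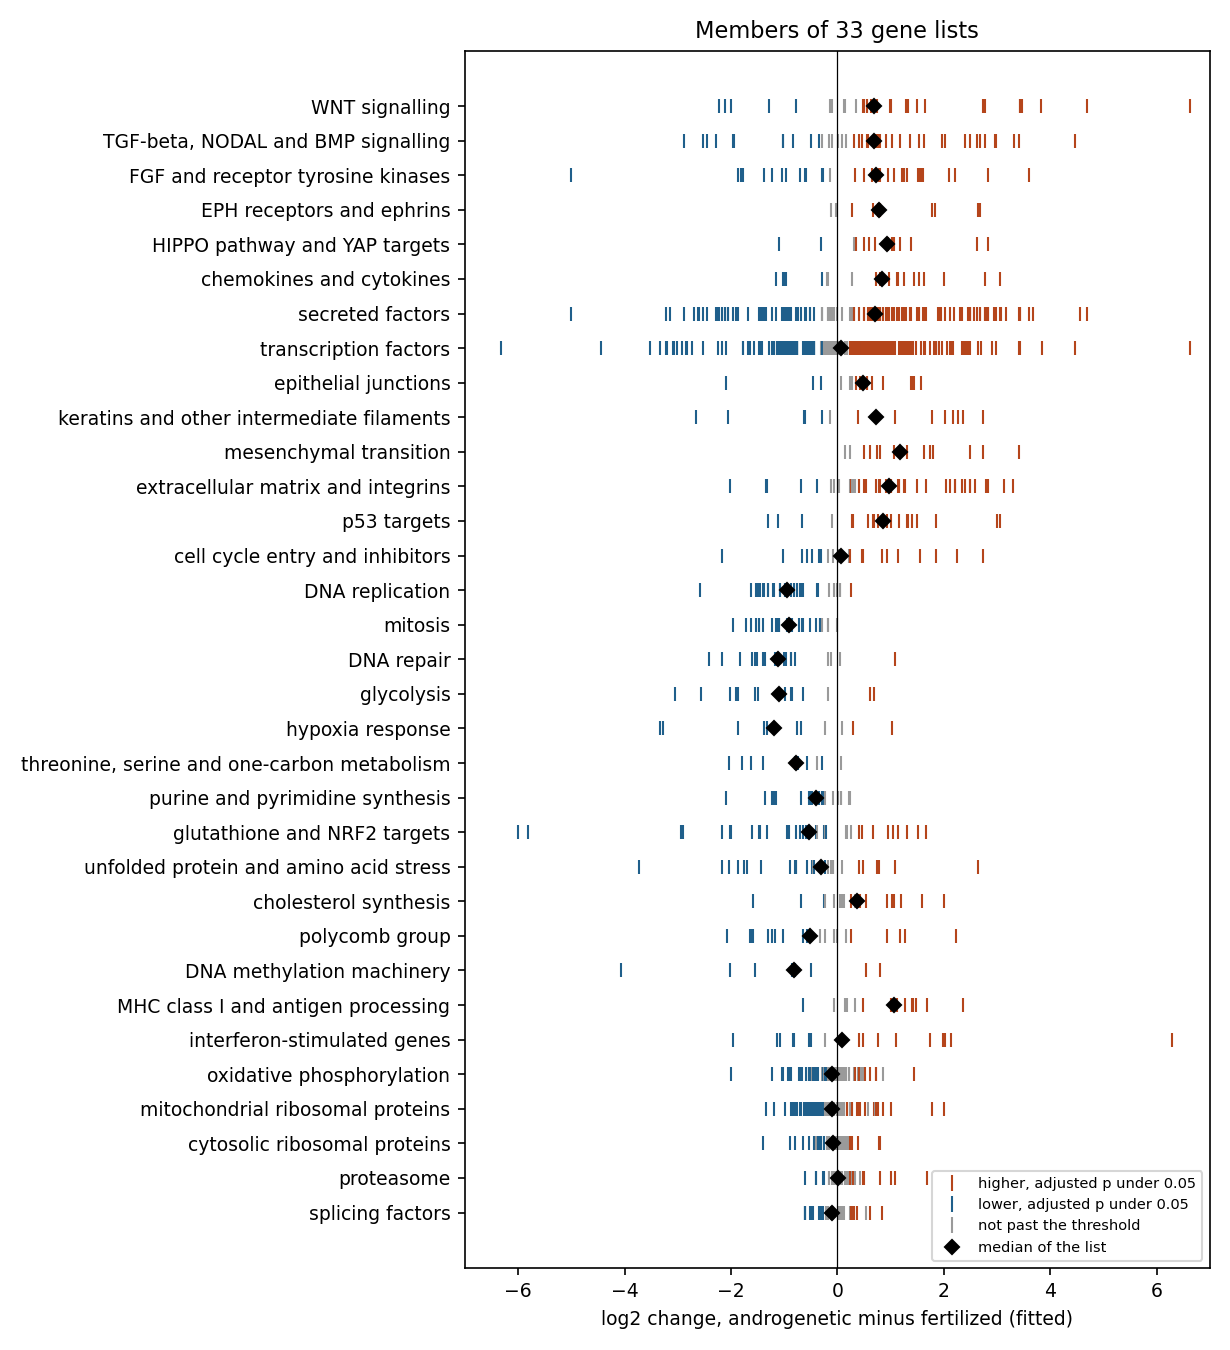
Fitted log2 change (horizontal axis, androgenetic minus fertilized) of each member of 33 gene lists, one tick per gene coloured by whether it passed the test, with the list median as a black diamond. Signalling, matrix and mesenchymal lists have medians above 0, replication, mitosis, repair and glycolysis lists have medians near -1, and ribosomal, proteasome and splicing lists have medians near 0.

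ES cell markers were lower in androgenetic cells and markers of several other cell types were higher. Of 17 measured ES cell markers 14 fell and 2 rose (median -2.09), and their mean log2 signal was 10.25 to 10.26 on androgenetic and 12.02 to 12.13 on fertilized arrays. Pou5f1, Sox2 and Nanog, the core factors of the pluripotent state, were 4.71-fold, 7.07-fold and 4.25-fold lower, yet were still detected on all 3 androgenetic arrays. The 2 markers that rose were Klf5 (0.44 ± 0.0842) and Tbx3 (0.61 ± 0.0874), factors that ES cells share with trophectoderm and other epithelia.

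Fibroblast markers, the genes that feeder cells would bring, moved with the groups. Of 20 listed 7 were measured, of which 6 rose and 1, Thy1, fell (-0.47 ± 0.154). The median was 2.22, and 1.12 at the bounds. The 3 members detected on all 6 arrays, of which 2 rose, had a median of 0.61. Thy1 did not pass when either fertilized passage 6 or 7, or androgenetic passage 6 or 8, was left out (-0.49 to -0.37). The mean log2 signal of the list ran from 8.67 to 8.70 on androgenetic and from 6.86 to 6.96 on fertilized arrays. The collagen gene Col1a1 and Lox, whose enzyme crosslinks collagen, were detected on every androgenetic and on no fertilized array. What part fibroblasts have in the results was not tested, and in bulk RNA more cells of a type and more RNA per cell cannot be told apart.

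Other lineages also differed. Of 26 mesoderm and primitive streak genes listed 5 were measured, and all 5 rose (median 3.43, or 2.32 at the bounds). None of the 5 was detected on all 6 arrays. Their mean log2 signal on fertilized arrays was 5.92 to 6.10, below the detection floors. Such genes enter through the androgenetic arrays, so the filter favoured this direction. Smooth muscle genes rose in 6 of 6 measured cases (median 1.95). Striated muscle genes rose in 1 and fell in 2 of 4 (median -0.41). Of the genes that fell, Myl4 did not pass without androgenetic passage 7 or 8 or fertilized passage 6 or 7 (-0.82 to -0.60). Of 11 trophoblast markers 7 rose and 3 fell. Those of trophoblast stem cells rose in 6 and fell in 1 of 8 (median 1.54), and those of differentiated trophoblast rose in 1 and fell in 2 of 3 (median -0.86). Neural markers rose in 7 and fell in 3 of 10 (median 1.27). Those of neurons rose in 4 and fell in 3 of 7 (median 0.82). Gap43, a protein of growing axons, was 18.9-fold higher, while Elavl3, Ina and Syp fell. The other neural markers measured, 1 of progenitors and 2 of neural crest, rose. Endoderm markers rose in 7 and fell in 4 of 13 (median 0.95). Their mean log2 signal was close between kinds, 9.84 to 9.85 on androgenetic and 9.68 to 9.84 on fertilized arrays. Serpinh1, Sparc and Col4a1 rose most, and Amn, Apoe and Lama1 fell most, among members whose groups did not overlap. Endothelial and blood markers (2 higher and 3 lower of 6) and germ cell markers (3 lower of 4) did not share this direction. Lists share members, such as Eomes in the trophoblast and mesoderm lists and Bmp4 in the trophoblast and TGF-beta lists. Their counts are therefore not separate. The part of other cell types in the results was not tested.

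WNT signalling genes were mostly higher in androgenetic cells, from the ligands to the targets. Of 32 measured members 21 rose and 5 fell (median 0.69), beside 35.4% higher and 38.4% lower over all genes. By role, 5 of 6 ligand and secretion genes rose, 5 of 8 receptors, 5 of 6 targets, 3 of 6 extracellular inhibitors and 3 of 6 intracellular components. Sp5, a zinc finger factor that WNT signalling switches on directly, gave log2 signals of 12.78, 12.88 and 12.75 in androgenetic and 5.94, 6.12 and 6.48 in fertilized cells. Every androgenetic array and no fertilized array detected it. The difference was at least 68.5-fold (adjusted p = 3.38e-08), the largest lower bound of any named gene in either direction.

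The promoter window of Sp5 is shown because this target rose most. It spans chr2:70474673-70474972 on the plus strand of GRCm38.p6, from RefSeq, and reaches from 250 bases before the start of transcription to 50 after it. Capitals mark CTTTGAT, letters of a TCF and LEF binding element, searched on both strands.
Sp5: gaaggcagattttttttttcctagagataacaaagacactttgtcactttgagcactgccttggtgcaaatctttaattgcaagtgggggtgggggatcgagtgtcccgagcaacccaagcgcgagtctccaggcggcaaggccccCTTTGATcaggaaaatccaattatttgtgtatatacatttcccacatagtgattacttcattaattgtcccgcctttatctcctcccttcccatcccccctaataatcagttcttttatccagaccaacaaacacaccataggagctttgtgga
Of the 6605 measured genes with a promoter window 198 hold CTTTGAT (3.00%). Only 19 of the 32 WNT members have a window, too few for a comparison, and Sp5 is the 1 of these (5.26%) that holds it. A match describes the letters and is not evidence of binding.

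Of the ligands, Wnt6 gave 11.06, 11.10 and 11.13 in androgenetic and 6.49, 6.63 and 6.12 in fertilized cells. No fertilized array detected it, and it was at least 21.0-fold higher. Wnt4 was 10.8-fold higher (3.43 ± 0.0947), with signals of 10.48, 10.38 and 10.39 in androgenetic and 7.11, 7.02 and 6.82 in fertilized cells. Wls, which carries WNT proteins to the cell surface, was 14.1-fold higher (3.82 ± 0.102, adjusted p = 7.24e-08), with 12.16, 12.23 and 12.07 against 8.33, 8.18 and 8.50. For these genes all androgenetic arrays lay above all fertilized arrays. Groups that did not overlap were a condition for naming them, and 37.7% of all genes lay above in this way. Porcn, which attaches the lipid that WNT proteins need, went the other way and was 4.00-fold lower, with 8.60, 8.51 and 8.54 against 10.58, 10.60 and 10.47.

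Fzd10, a WNT receptor of the Frizzled family, was 11.2-fold higher (3.48 ± 0.131), with signals of 11.22, 11.12 and 11.20 in androgenetic and 7.83, 7.87 and 7.40 in fertilized cells. The receptor genes Fzd2, Fzd6, Ror2 and Ryk rose as well, while Fzd7 and Lrp6 fell. Another probe of Ryk passed the test in the opposite direction. Among the targets Notum, an enzyme that strips the lipid from WNT proteins, gave 10.13, 10.25 and 10.08 in androgenetic and 6.83, 6.70 and 6.63 in fertilized cells, above background on 2 of 3 fertilized arrays (adjusted p = 6.65e-08). Axin2, Cdx1 and Ccnd1 rose with it. Nkd2, which binds Dishevelled, was detected on no androgenetic array and was at least 2.66-fold lower. Sfrp1, a secreted protein that binds WNT ligands, was 4.70-fold lower, with 6.71, 6.89 and 6.78 against 9.08, 8.82 and 9.18.

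Genes of TGF-beta, NODAL and BMP signalling were mostly higher. Of 46 measured members 29 rose and 11 fell (median 0.70, or 0.63 at the bounds), among them 8 of 8 targets upward. The ligand Bmp4, which sustains mouse ES cells together with LIF and also induces mesoderm, was 6.83-fold higher (2.77 ± 0.0897, adjusted p = 1.63e-07). Its signals were 12.86, 12.88 and 12.80 in androgenetic and 9.95, 10.21 and 10.06 in fertilized cells. Tgfb2 was 6.14-fold higher, with 10.29, 10.29 and 10.34 against 7.57, 7.74 and 7.76. For both ligands all androgenetic arrays lay above all fertilized arrays, as for 37.7% of all genes. This was a condition for naming Tgfb2, while Bmp4 was on a fixed list. Bmp1 was 10.6-fold higher, with 13.21, 13.31 and 13.19 against 9.78, 9.90 and 9.80. Despite its name and its place among the ligands of this list, Bmp1 encodes a protease that trims procollagen.

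The genes of this list that fell included Gdf3, Lefty1 and Tdgf1. Gdf3, a ligand made by ES cells, was 7.37-fold lower (-2.88 ± 0.0986), with 9.18, 9.23 and 9.10 against 12.07, 12.19 and 11.88. Lefty1, a NODAL inhibitor that NODAL itself switches on, was 5.46-fold lower, with 9.26, 9.42 and 9.47 against 11.89, 11.96 and 11.65. Tdgf1, the NODAL co-receptor also called Cripto, was 5.75-fold lower, with 8.06, 8.49 and 8.23 against 10.57, 10.76 and 11.02. In none of the 3 did the groups overlap, as in 78.1% of all genes. This was a condition for naming Gdf3 and Tdgf1, while Lefty1 was on a fixed list. The related inhibitor Lefty2 rose, and Nodal changed by -0.28 without passing the test (adjusted p = 0.0662). Ltbp4, which holds latent TGF-beta in the matrix, was 3.89-fold lower.

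Receptors of TGF-beta and BMP were mostly higher, as were their targets. Tgfbr2, the receptor that binds TGF-beta, was 9.97-fold higher (3.32 ± 0.0754, adjusted p = 4.4e-08), with 10.80, 10.79 and 10.78 against 7.43, 7.56 and 7.43. Msx1, a homeobox factor that BMP switches on, was detected on no fertilized array and was at least 16.8-fold higher, with 10.81, 10.75 and 10.78 against 6.30, 6.30 and 6.36. Id3, which blocks helix-loop-helix factors downstream of BMP, gave 9.58, 9.70 and 9.61 against 6.80, 6.90 and 6.26 and was above background on 2 of 3 fertilized arrays (adjusted p = 1.89e-06). The remaining targets, Id1, Id2, Id4, Tgfbi, Ccn2 and Smad6, passed upward too. Among intracellular components the SMAD transducers Smad1, Smad2, Smad3, Smad4 and Smad5 rose and the regulators Smurf1, Tgif2, Skil and Foxh1 fell.

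**Figure D2:**
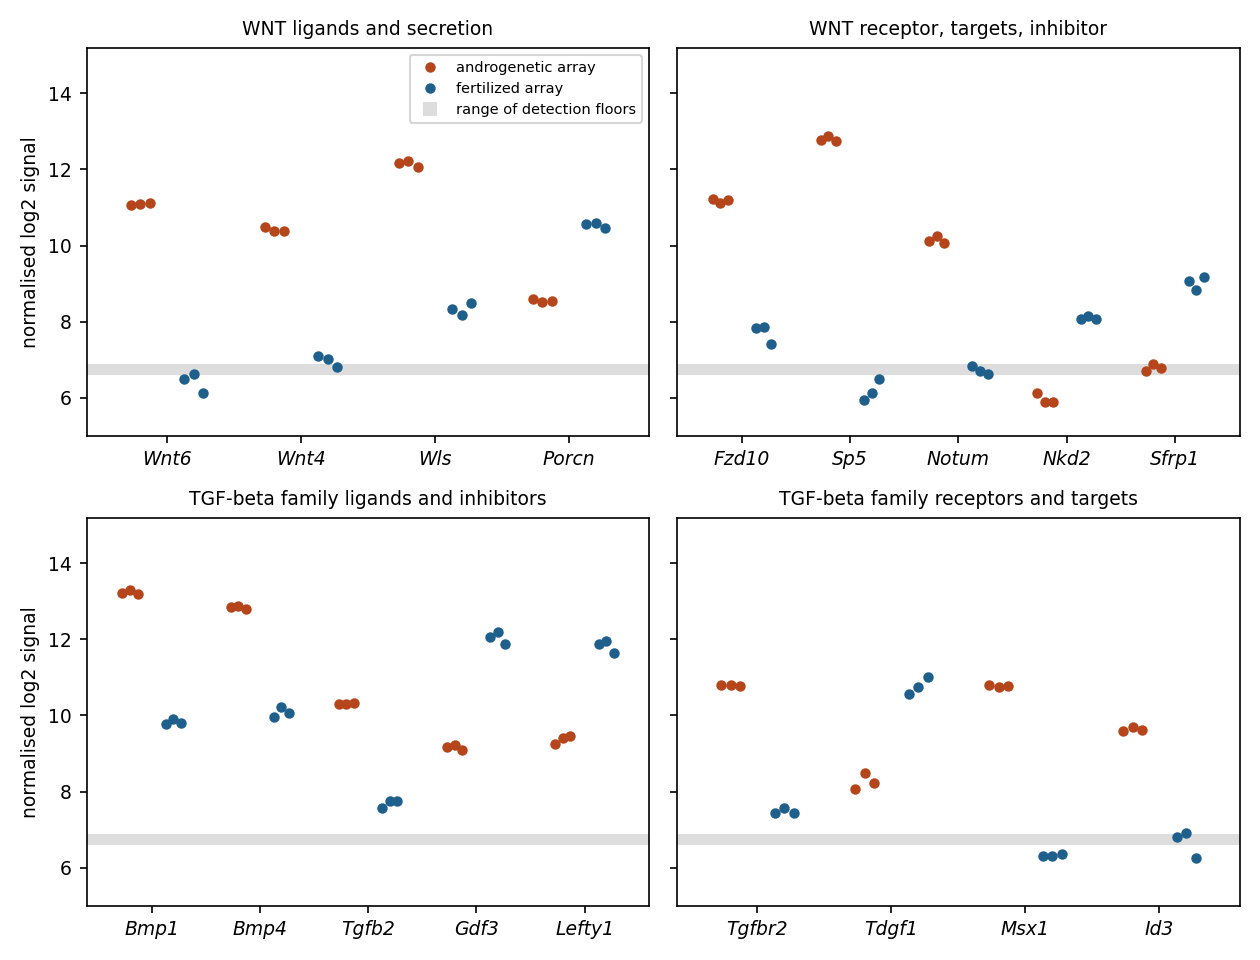
Normalised log2 signal (vertical axis) of named WNT and TGF-beta family genes on the 3 androgenetic (orange) and 3 fertilized (blue) arrays, one point per array, with a grey band over the signals at which detection begins (6.62 to 6.86). Sp5, Wnt6 and Msx1 are at or below the band on all fertilized arrays, and Nkd2 is below it on all androgenetic arrays.

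Growth factor genes were split among ligands and mostly higher among receptors. Of 34 members of the FGF and receptor tyrosine kinase list 20 rose and 13 fell, with 8 higher and 7 lower of 16 ligands, 7 higher and 2 lower of 9 receptors, and 5 higher and 4 lower of 9 feedback genes. Fgf4, the growth factor with which ES cells prime themselves for differentiation, gave 5.60, 5.46 and 5.47 in androgenetic and 10.58, 10.10 and 10.82 in fertilized cells and was at least 14.1-fold lower. Fgf10, a ligand of budding organs, was the reverse, with 9.88, 9.98 and 9.92 against 6.46, 6.35 and 6.13, at least 9.32-fold higher. Each was detected on all 3 arrays of one kind and on none of the other. Fgf5, a marker of the epiblast after implantation, was detected in androgenetic cells alone, at least 1.18-fold higher. Vegfa, the main growth factor of blood vessels, was 3.64-fold lower (-1.86 ± 0.126), with 8.71, 8.97 and 8.84 against 10.64, 10.53 and 10.94.

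Among the receptors Axl was 7.17-fold higher, with 12.45, 12.59 and 12.63 against 9.64, 9.81 and 9.70. Egfr, the receptor of epidermal growth factor, was 4.66-fold and Flt1, a VEGF receptor, 4.28-fold higher. Mertk, a relative of Axl, was detected in fertilized cells alone and was at least 1.33-fold lower. Ephrins, membrane-bound ligands that guide cell contact, rose in 6 of 7 measured cases and their receptors in 2 of 3. Efnb1 was 6.47-fold and Efna5 6.30-fold higher, and Efnb2 was at least 1.90-fold higher. NOTCH genes were split, 7 higher and 6 lower of 14, with both measured ligands lower.

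Across the 136 measured genes of secreted factors 78 rose and 45 fell (median 0.70, or 0.50 at the bounds). Over the 87 detected on all 6 arrays 46 rose and the median was 0.41. Growth factors and morphogens rose in 30 and fell in 16 of 49, and antagonists and binding proteins rose in 16 and fell in 4 of 23. Edn1, the vasoconstrictor endothelin, gave 11.29, 11.28 and 11.37 in androgenetic and 6.71, 6.70 and 6.85 in fertilized cells, and 2 of 3 fertilized arrays detected it (adjusted p = 2.72e-08). Ece1, the enzyme that cuts endothelin to its active form, was 2.01-fold higher. Bdnf, a neurotrophin, was detected in androgenetic cells alone, with 9.37, 9.30 and 9.30 against 5.61, 5.81 and 5.49, and was at least 6.12-fold higher. Both peptide genes lay near or below the detection floor in fertilized ES cells.

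Genes of proteins that bind insulin-like growth factors moved in both directions. Igfbp7 was 9.02-fold higher, with 10.95, 10.92 and 10.72 against 7.55, 7.81 and 7.71. Igfbp3 was 8.43-fold higher. Igfbp2 was 4.35-fold lower, with 11.28, 11.27 and 11.33 against 13.43, 13.26 and 13.56. Igfbp4, Igfbp5 and Igfbp6 rose. Among other antagonists Nog, which binds BMP ligands, was detected in androgenetic cells alone.

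Chemokines, cytokines and their receptors rose in 13 and fell in 5 of 21 (median 0.83, or 0.57 at the bounds). The median was -0.18 over members detected on all 6 arrays, a setting that drops members undetected in either kind. Csf1, the growth factor of macrophages, gave 9.49, 9.45 and 9.59 against 6.68, 6.79 and 6.76 and was above background on 2 of 3 fertilized arrays. Cx3cl1, or fractalkine, was at least 2.40-fold higher. Osm, a cytokine related to LIF, was at least 2.40-fold lower, and Lifr, the receptor through which LIF maintains mouse ES cells, at least 1.10-fold lower. Fas, a death receptor, was at least 6.82-fold higher and Tnfrsf12a 4.02-fold higher.

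Secreted proteases, inhibitors and matrix-associated factors were split, 24 higher and 20 lower of 49. Sema3f, a guidance cue, was 7.94-fold higher, while Mmp17, a metalloprotease, was 9.37-fold lower, with 7.11, 7.03 and 7.33 against 10.26, 10.40 and 10.50. The apolipoprotein genes Apoe and Apoa2 were 4.49-fold and 8.86-fold lower. Apoa2 varied among fertilized arrays, at 10.50, 10.55 and 9.87. Ramp2 and Ramp3, partners of the receptor for adrenomedullin, were 3.66-fold and at least 3.40-fold lower, and the natriuretic peptide gene Nppb was 2.04-fold lower.

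**Figure D3:**
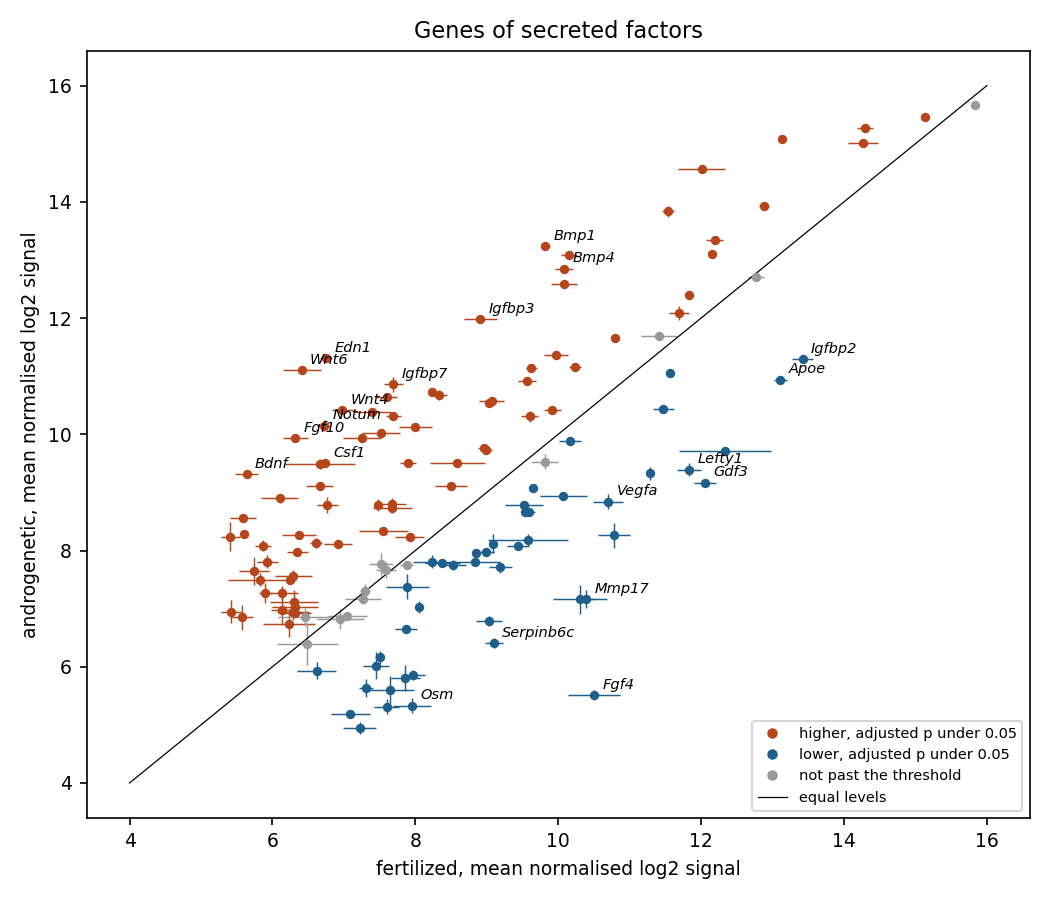
Mean normalised log2 signal of 136 genes of secreted factors in fertilized (horizontal axis) and androgenetic cells (vertical axis), with bars for the SD over 3 arrays and the line of equal levels. Wnt6, Edn1 and Bdnf lie far above the line at low fertilized levels, and Fgf4 lies far below it at a low androgenetic level.

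Transcription factor genes were more evenly divided than secreted factors in count, a difference that was not tested. Of 249 measured 116 rose and 82 fell (median 0.06). Homeobox genes rose in 18 and fell in 10 of 34. Gsc, a factor of the organizer, gave 9.48, 9.46 and 9.43 in androgenetic and 5.49, 5.82 and 5.56 in fertilized cells and was at least 6.74-fold higher. Zeb2, a repressor of epithelial genes, was at least 5.01-fold higher, with 9.05, 9.01 and 9.03 against 5.52, 5.79 and 5.53. No fertilized array detected either. Otx2, a homeobox factor of the primed epiblast and forebrain, was 21.8-fold lower (-4.45 ± 0.135, adjusted p = 1.18e-07), with 7.63, 7.56 and 7.82 against 12.07, 11.90 and 12.37.

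Factors of the SOX, FOX, GATA, T-box, KLF and SP families rose in 16 and fell in 14 of 39. Eomes, a T-box factor of trophoblast stem cells and the primitive streak, was detected in androgenetic cells alone, with 9.05, 8.97 and 9.06 against 5.55, 5.74 and 5.50, at least 5.00-fold higher. Foxq1, a forkhead factor, was 7.50-fold higher, with 10.31, 10.29 and 10.30 against 7.55, 7.36 and 7.27. Gata2 gave 9.15, 9.15 and 9.12 against 6.73, 6.79 and 6.46, with 1 of 3 fertilized arrays above background (adjusted p = 4.58e-07). Sox12 and Sox15 fell to undetected levels, at least 5.12-fold and 6.41-fold lower.

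Helix-loop-helix and bZIP factors rose in 31 and fell in 19 of 61. Jun, which answers to growth factors and stress, gave 9.12, 9.29 and 9.28 against 6.84, 6.84 and 6.71, with 2 of 3 fertilized arrays above background. Atf3, a stress factor, was at least 3.34-fold higher. Olig1, known from oligodendrocyte precursors, was 10.1-fold lower, with 8.97, 8.88 and 8.84 against 12.19, 12.35 and 12.18. Tcf15, known from paraxial mesoderm, was at least 6.65-fold lower. Myc was detected in androgenetic cells alone, at least 1.23-fold higher, and Mxd3, a MAX partner that opposes MYC, in fertilized cells alone, at least 1.36-fold lower.

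The remaining factors rose in 51 and fell in 39 of 115. Ets1 was 5.13-fold higher, and Cited2, which competes with HIF1A for the co-activator p300, 5.08-fold higher. Aire, which drives tissue antigens in the thymus, was detected in fertilized cells alone, with 5.06, 5.18 and 4.95 against 11.38, 11.48 and 11.28, at least 25.9-fold lower. Zbtb8a was 11.6-fold and Mef2b at least 5.43-fold lower. Of 5 retinoic acid genes 4 fell, among them Rxra, the partner of retinoic acid receptors, at least 3.40-fold, and Crabp2, which delivers retinoic acid to the nucleus, rose 2.16-fold.

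Genes of cell shape and adhesion were mostly higher. Of 14 measured genes of mesenchymal transition 12 rose (median 1.18), and Mmp9 and Cdh11 did not pass. Vim, the intermediate filament of mesenchymal cells, was 6.67-fold higher, with 12.44, 12.50 and 12.62 against 9.92, 9.71 and 9.72. The epithelial cadherin Cdh1 was also higher, 1.46-fold (0.55 ± 0.0965, adjusted p = 0.00126), with 12.57, 12.63 and 12.58 against 12.01, 11.91 and 12.22. Epithelial junction genes rose in 11 and fell in 3 of 17 (median 0.48). Mesenchymal and epithelial genes were thus higher on the same arrays.

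Of 8 measured keratins 5 rose and 2 fell (median 1.43), and of 6 other intermediate filament genes 3 rose and 3 fell. Krt8, a keratin of simple epithelia, was 5.18-fold higher, with 15.72, 15.68 and 15.62 against 13.28, 13.15 and 13.47. Its filament partner Krt18 was 4.55-fold and Krt19 4.78-fold higher, whereas Krt17 and Krt42 were 4.15-fold and 6.31-fold lower. Contractile genes of smooth muscle rose in each case measured, with Tagln 5.37-fold, Tpm1 4.21-fold and Actg2 at least 4.66-fold higher.

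Of 44 extracellular matrix genes and integrins 30 rose and 5 fell (median 0.96, or 0.83 at the bounds), including all 6 collagens and all 7 integrins measured. Col5a1, a fibrillar collagen, was 9.88-fold higher, with 12.23, 12.15 and 12.17 against 8.64, 9.06 and 8.94. Mmp14, which cuts collagen at the cell surface, was 5.66-fold and Serpinh1, the chaperone of collagen, 5.08-fold higher. Lama1 and Nid2, parts of basement membranes, were 4.05-fold and 2.53-fold lower. Several of these genes are also fibroblast or endoderm markers, and the part of those cells was not tested. HIPPO pathway genes rose in 8 of 8 cases, from 0.35 for Tead2 to 1.07 for Wwtr1, although another probe of Tead4 passed downward. Targets of YAP, the factor this pathway restrains, rose in 5 and fell in 2 of 8, with Ccn1 2.62-fold higher and Ankrd1 2.14-fold lower. The other target that fell, Birc5, did not pass without androgenetic passage 6.

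Genes of DNA replication, mitosis and DNA repair were lower as groups. Replication genes fell in 27 of 34 (median -0.94), mitosis genes fell in 26 of 30 (median -0.91), and repair genes fell in 18 and rose in 1 of 22 (median -1.12), beside 38.4% lower over all genes. The 1 replication gene that rose, Gins3 (0.26 ± 0.0887), did not pass with the replicate number as a block, without any 1 androgenetic array or without fertilized passage 6 (0.20 to 0.28). Pold2, a subunit of DNA polymerase delta, was 6.03-fold lower (-2.59 ± 0.0843), with 9.85, 9.97 and 9.77 against 12.52, 12.44 and 12.41. Plk1, a kinase that drives mitosis, was 3.30-fold lower (-1.72 ± 0.107, adjusted p = 3.63e-06), with 11.69, 11.81 and 11.76 against 13.35, 13.69 and 13.39. Kif11, the motor that pushes spindle poles apart, was 3.07-fold lower (-1.62 ± 0.0738). Groups did not overlap for these 3 genes, which was a condition for naming them and held for 78.1% of all genes. Birc5, the survivin gene, a chromosome passenger on the mitosis list, changed by only -0.30 ± 0.0818 (adjusted p = 0.0116) and did not pass without androgenetic passage 6 (-0.25).

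The promoter windows of Plk1 and Kif11 are shown as 1 gene of each role in the mitosis list. Both hold a motif that most, but not all, members with a window hold. They span chr7:122159185-122159484 and chr19:37376132-37376431, both on the plus strand of GRCm38.p6, from RefSeq. Capitals mark TTTGAA, core letters of the cell cycle genes homology region, or its reverse complement.
Plk1: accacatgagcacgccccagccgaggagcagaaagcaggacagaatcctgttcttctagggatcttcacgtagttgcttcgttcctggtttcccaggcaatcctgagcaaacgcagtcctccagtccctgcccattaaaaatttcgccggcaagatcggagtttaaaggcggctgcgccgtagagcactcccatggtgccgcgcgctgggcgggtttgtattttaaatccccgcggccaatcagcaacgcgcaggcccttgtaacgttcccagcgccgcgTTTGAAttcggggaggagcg
Kif11: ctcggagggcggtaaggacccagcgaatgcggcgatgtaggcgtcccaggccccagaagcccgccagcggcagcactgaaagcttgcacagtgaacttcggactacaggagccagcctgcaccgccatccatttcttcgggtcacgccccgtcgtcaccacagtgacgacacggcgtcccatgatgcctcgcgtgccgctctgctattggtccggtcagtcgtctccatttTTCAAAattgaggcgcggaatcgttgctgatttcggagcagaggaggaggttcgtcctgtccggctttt
Of the 26 mitosis genes with a window 19 hold TTTGAA (73.1%), beside 918 of 6605 measured genes (13.9%). CCAAT, the box bound by NF-Y, is in 18 of the 26 (69.2%), beside 44.5% of all. In replication genes TTTGAA is in 8 of 29 windows (27.6%) and CCAAT in 17 of 29 (58.6%). CCAAT is also in 16 of 17 windows of the cholesterol synthesis list (94.1%), which leaned upward. In the cycle entry list, which was mixed, it is in 12 of 17 windows (70.6%). The 4 motifs searched were chosen with the directions of change known and after others had been looked at, and the shares describe the lists only.

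Among repair genes Chek1, the kinase that guards stalled replication forks, was detected in fertilized cells alone, with 6.35, 6.20 and 6.19 against 8.46, 8.52 and 8.99, and was at least 3.92-fold lower. Fanci and Fancd2, which form a complex at crosslinked DNA, were 4.49-fold and 3.56-fold lower. Ercc1 was the repair gene that rose, 2.13-fold.

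Regulators of cycle entry were mixed, 10 higher and 7 lower of 23. E2f1, which switches on replication genes, was 4.49-fold lower (-2.17 ± 0.0739), with 9.78, 9.79 and 9.68 against 11.94, 11.93 and 11.88, and Ccne1, a cyclin that is abundant in ES cells, was 2.03-fold lower. Ccnd2, a cyclin that answers to growth factors, was 4.76-fold higher, with 9.57, 9.44 and 9.37 against 7.25, 7.30 and 7.07. Of the inhibitors of cyclin-dependent kinases Cdkn2b, which TGF-beta induces, was 6.64-fold higher, with 11.65, 11.65 and 11.54 against 8.71, 9.09 and 8.84. Cdkn1a, or p21, was 3.62-fold higher (1.86 ± 0.0907), with 13.39, 13.29 and 13.29 against 11.53, 11.55 and 11.32. No array of one group reached the other in these genes, as in 78.1% of all genes. This was a condition for naming each of them but Cdkn1a, which was on a fixed list.

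Of 20 measured p53 target genes, which include Cdkn1a, 16 rose and 3 fell (median 0.85). Plk2, a stress-induced kinase, was 7.99-fold higher, with 12.18, 12.11 and 12.13 against 9.04, 9.12 and 9.26, and Sesn1 was 2.17-fold lower. Genes of the apoptosis machinery were split, 9 higher and 6 lower of 19. Casp8, the protease that Fas activates, was detected in androgenetic cells alone, with 9.83, 9.77 and 9.78 against 6.30, 6.10 and 6.43, at least 8.50-fold higher. Birc2, an inhibitor of apoptosis, was 2.65-fold lower.

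Most genes of glycolysis and of the hypoxia response were lower. Of 15 glycolysis genes 12 fell and 2 rose (median -1.10), and of 13 hypoxia genes 9 fell and 2 rose (median -1.19). The hypoxia genes that rose were Hif1a and Bnip3l, a mitophagy receptor (0.29 ± 0.0811), and Bnip3l did not pass without androgenetic passage 6 (0.26). The glycolysis genes that rose were the glucose transporters Slc2a1 (0.68 ± 0.0910) and Slc2a3 (0.62 ± 0.0858). Aldoc, an aldolase, was 8.36-fold lower (-3.06 ± 0.100), with 8.12, 8.11 and 7.84 against 11.10, 11.14 and 11.01. The phosphofructokinase genes Pfkp and Pfkl, which set the pace of the pathway, were 5.88-fold and 4.05-fold lower. Gapdh, with 15.67, 15.60 and 15.68 against 15.81, 15.80 and 15.86, did not pass (-0.17 ± 0.0719, adjusted p = 0.0584).

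Of the hypoxia genes Pdk1, which keeps pyruvate out of the mitochondrial cycle, was 10.1-fold lower (-3.34 ± 0.0914), with 9.02, 9.06 and 9.10 against 12.35, 12.29 and 12.55. Egln3, an oxygen sensor that marks HIF1A for destruction, was 9.66-fold lower, with 8.49, 8.44 and 8.39 against 11.56, 11.67 and 11.90. Hif1a transcripts were 2.02-fold higher (1.02 ± 0.207, adjusted p = 0.00267), with 9.82, 9.70 and 9.82 against 8.90, 8.26 and 9.14. Hif1a is itself counted in this list, and it and most other members changed in opposite directions at the level of RNA.

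The promoter windows of Egln3 and Aldoc are shown as strongly lower members whose windows hold ACGTG, core letters of the hypoxia response element. They span chr12:54203825-54204124 on the minus strand and chr11:78322823-78323122 on the plus strand of GRCm38.p6, from RefSeq. Capitals mark ACGTG or its reverse complement.
Egln3: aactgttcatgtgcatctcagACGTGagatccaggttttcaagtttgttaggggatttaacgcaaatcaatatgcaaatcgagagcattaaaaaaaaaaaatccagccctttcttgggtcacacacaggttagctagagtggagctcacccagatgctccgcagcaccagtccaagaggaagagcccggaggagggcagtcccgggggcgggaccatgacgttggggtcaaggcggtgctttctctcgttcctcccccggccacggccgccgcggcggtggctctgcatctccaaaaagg
Aldoc: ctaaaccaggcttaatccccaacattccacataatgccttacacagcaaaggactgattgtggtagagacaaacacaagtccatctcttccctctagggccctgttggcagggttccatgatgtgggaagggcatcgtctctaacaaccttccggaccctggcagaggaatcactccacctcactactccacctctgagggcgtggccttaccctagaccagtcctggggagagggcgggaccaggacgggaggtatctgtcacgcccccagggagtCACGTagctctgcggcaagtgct
ACGTG is in 7 of 11 windows of the hypoxia list (63.6%) and in 10 of 14 of the glycolysis list (71.4%), beside 2005 of 6605 measured genes (30.4%). It is also in 16 of 31 windows of the lysosome list (51.6%), which leaned upward. Windows of the hypoxia and glycolysis lists are few, and the shares describe the lists only. The same letters also occur in binding elements of other factors.

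**Figure D4:**
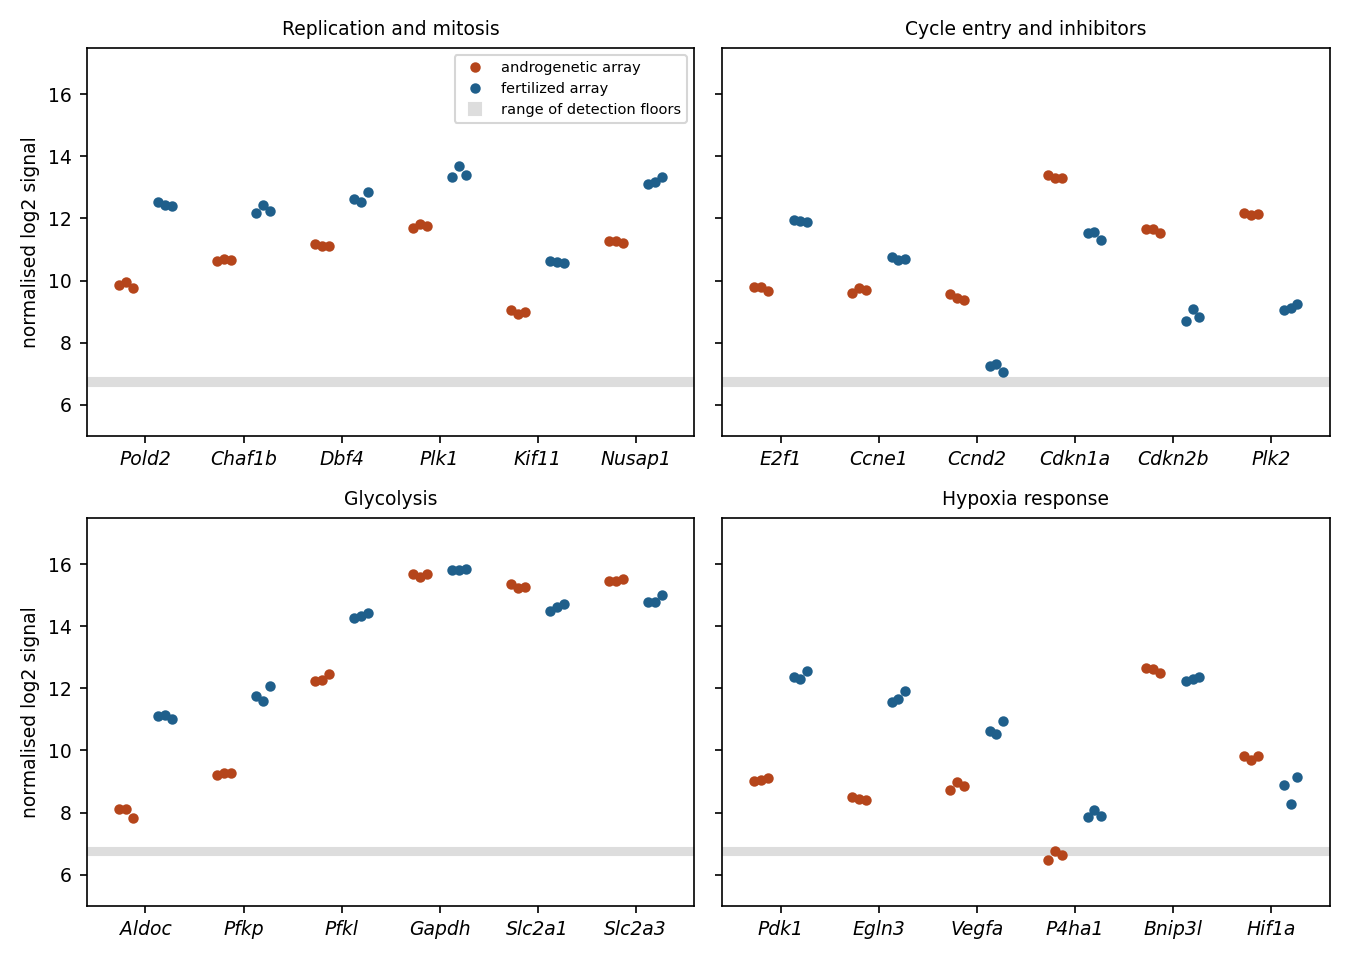
Normalised log2 signal (vertical axis) of named genes of replication and mitosis, cycle entry, glycolysis and hypoxia on the 3 androgenetic (orange) and 3 fertilized (blue) arrays, one point per array, with a grey band over the signals at which detection begins. Groups do not overlap for any gene drawn, which was a condition for choosing every gene but Gapdh, Cdkn1a and Hif1a, and Gapdh differs least.

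Genes for the synthesis of serine, folates and nucleotides were lower. Of 10 genes of threonine, serine and one-carbon metabolism 8 fell (median -0.77). Psat1, an enzyme of serine synthesis, was 4.11-fold lower, with 11.66, 11.66 and 11.59 against 13.59, 13.49 and 13.95. Of 20 purine and pyrimidine genes 13 fell (median -0.41), with Prps1 4.27-fold lower. Targets of ATF4, the factor of amino acid stress, fell in 12 and rose in 2 of 17 (median -0.77). Chac1, which degrades glutathione, was 13.1-fold lower, with 7.68, 7.58 and 7.48 against 11.33, 11.23 and 11.32.

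Glutathione and NRF2 target genes fell in 23 and rose in 9 of 37 (median -0.54). Gpx2, a glutathione peroxidase, gave 5.55, 6.15 and 5.75 in androgenetic and 11.96, 11.88 and 11.65 in fertilized cells and was at least 35.3-fold lower. Gstp2, a glutathione transferase, gave 6.29, 6.37 and 6.13 against 12.20, 12.15 and 11.86 and was at least 41.8-fold lower. No androgenetic array detected either gene. Hmox1, a heme oxygenase that NRF2 also drives, was 3.16-fold higher.

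Cholesterol synthesis and lysosome genes leaned upward, and fatty acid genes did not. Cholesterol synthesis genes rose in 11 and fell in 3 of 20 (median 0.37), with Hsd17b7 4.02-fold higher and Insig1, a brake on the pathway, 2.99-fold lower. Fatty acid metabolism genes rose in 7 and fell in 7 of 19 (median 0.03), or fell in 4 without androgenetic passage 6. Lysosome genes rose in 17 and fell in 10 of 35 (median 0.46), with the cathepsin genes Ctsc and Ctsl 3.96-fold and 3.23-fold higher. Heat shock proteins rose in 6 and fell in 2 of 18 (4 fell when arrays were scaled instead to their median or 75th percentile), with Cryab, a small heat shock protein of muscle and lens, 6.30-fold higher.

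Chromatin genes of the PRC2 complex, which places the repressive methyl mark on histone H3, fell in 6 of 8 (median -0.84), with the accessory subunit Mtf2 3.14-fold lower. PRC1 genes were divided, 5 higher and 5 lower of 13. Phc2 was 4.70-fold higher, with 12.13, 12.23 and 12.14 against 9.79, 10.11 and 9.90. Its relative Phc1 was 4.22-fold lower, with 12.16, 12.12 and 12.29 against 14.17, 14.14 and 14.49. Cbx7, a subunit that reads the mark in ES cells, was 3.04-fold lower. Of 8 genes of DNA methylation 6 fell and 2 rose (median -0.82), led by Dnmt3l, the cofactor of new methylation, 16.7-fold lower with 11.12, 11.29 and 11.26 against 15.16, 15.35 and 15.34.

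MHC class I and antigen processing genes rose in 9 and fell in 1 of 14 (median 1.06, or 0.54 at the bounds and 0.41 over the 10 detected on all 6 arrays). B2m, the light chain of class I molecules, was 5.13-fold higher, with 13.15, 13.15 and 13.24 against 10.90, 10.86 and 10.71. Interferon-stimulated genes were divided, 9 higher and 8 lower of 18, with a median of 0.09 that was -0.50 over the 13 detected on all 6 arrays. Gbp2b, an interferon-induced GTPase, was at least 26.9-fold higher, with 11.47, 11.47 and 11.44 against 5.08, 5.33 and 5.10, whereas Bst2, a membrane tether of viruses, was 3.90-fold lower.

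Genes outside the lists with large changes had varied functions. Car2, a carbonic anhydrase, was 28.0-fold higher, with 12.33, 12.28 and 12.29 against 7.51, 7.38 and 7.58, the largest fold among genes detected on every array and higher in androgenetic cells. Pik3r3, a regulatory subunit of PI3 kinase, was 16.9-fold and Tmprss2, a membrane protease, 15.9-fold higher. Cbr3, a carbonyl reductase, was 29.1-fold lower, with 8.07, 7.94 and 7.97 against 12.77, 12.99 and 12.82. Stag3, a meiotic cohesin, was 13.1-fold, Tdrd12 15.6-fold and Tex14 at least 11.2-fold lower.

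Genes of the LIN28 axis and other oncofetal RNA-binding proteins fell in 6 and rose in 2 of 8 (median -0.72). Rbpms2 was 5.35-fold lower, and Igf2bp1 and Igf2bp3, which bind the Igf2 message, were 1.64-fold and 1.75-fold higher. Lin28a, which blocks maturation of let-7 in ES cells, changed by -0.34 ± 0.103 (adjusted p = 0.0179) and did not pass without fertilized passage 6 or any 1 androgenetic array. Of the MYC family and ribosome biogenesis genes 16 fell and 6 rose of 25 (median -0.38), with the nucleolar gene Pes1 4.43-fold higher and Rrp1b 2.24-fold lower. Iron and metallothionein genes fell in 8 and rose in 3 of 13 (median -0.66). Trf, Mt3 and Mt2 fell most among members whose groups did not overlap, and Hmox1, Slc40a1 and Ireb2 rose. Slc40a1, the iron exporter, rose 2.15-fold, and Tfrc, the transferrin receptor, fell 2.03-fold. Ireb2 did not pass without the detection filter, without any 1 androgenetic array or without fertilized passage 6. Chromatin remodellers and modifiers fell in 17 and rose in 8 of 37 (median -0.19), or rose in 5 without androgenetic passage 7 or 8. The 45.9% that fell is near the 38.4% over all genes. In this list the demethylase gene Kdm4c was 3.94-fold lower and Smarca2 2.27-fold higher. Cdh2, Tdh, Lin28b, Mycn, Hand1, Cdx2, T and Trp53 were to be named whatever their change, but had no kept probe with a name.

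Housekeeping groups lay near 0 after quantile normalization. Cytosolic ribosomal proteins fell in 16 and rose in 5 of 56 (median -0.08), mitochondrial ribosomal proteins fell in 29 and rose in 14 of 71 (median -0.10), and splicing factors fell in 11 and rose in 7 of 34 (median -0.10). Proteasome subunits fell in 5 and rose in 9 of 37 (median 0.02). When arrays were scaled to their median or 75th percentile instead, 22 or 24 cytosolic ribosomal proteins fell and 2 rose (median -0.26 or -0.30), 4 splicing factors rose, and at the 75th percentile 17 splicing factors fell and the proteasome median was -0.09. Without single arrays some of these counts moved by over 1.5 times: 3 cytosolic ribosomal proteins rose and 6 splicing factors fell without any 1 androgenetic array or fertilized passage 6, and 3 proteasome subunits fell without androgenetic passage 6 or 7.

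Oxidative phosphorylation genes fell in 27 and rose in 8 of 74 (median -0.11), and they separated the fertilized arrays from each other. Relative to the group mean, the median member lay at 0.12, 0.11 and -0.22 in fertilized cells of passages 6, 7 and 8, and at -0.02, 0.01 and 0.01 in androgenetic cells. Under either of those scalings 3 of them rose. Without fertilized passage 8, 41 of them fell (median -0.24), and without any 1 of the androgenetic arrays 4 rose. On fertilized passage 8 the medians of heat shock proteins (0.18), hypoxia genes (0.16) and polycomb genes (0.15) lay above the group mean. The median SD of a gene within a group was 0.0686 in androgenetic and 0.139 in fertilized cells, and it was larger in fertilized cells for 77.8% of genes.

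**Figure D5:**
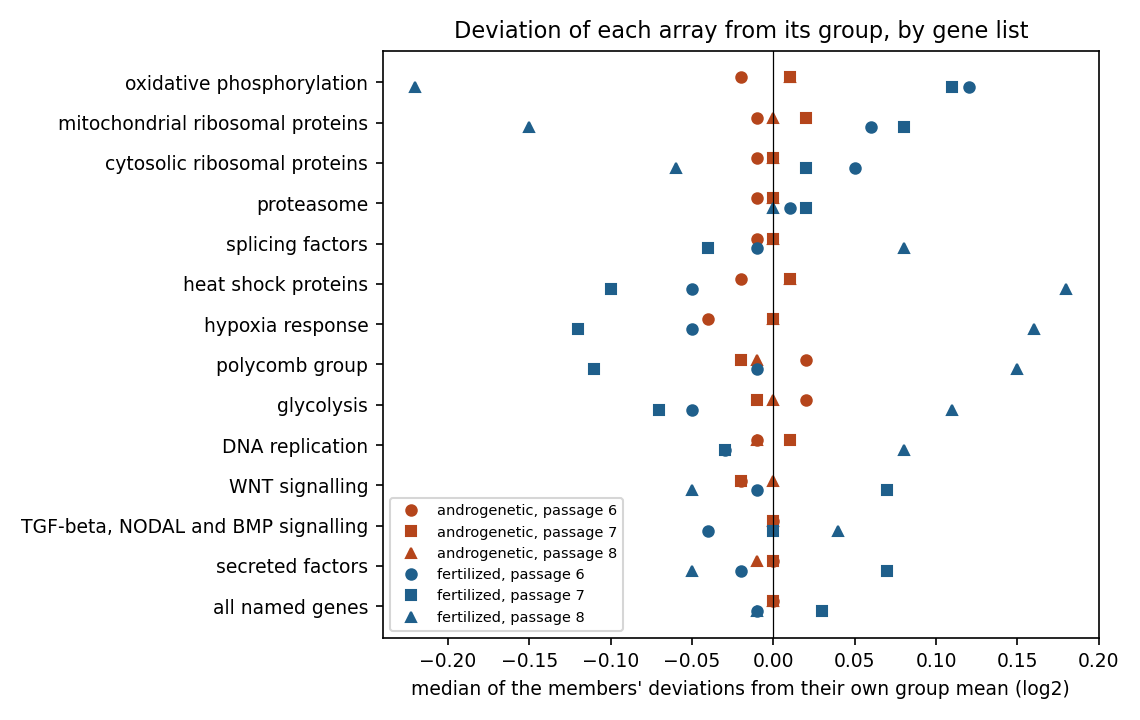
Median deviation of list members from their own group mean (horizontal axis, log2) on each array for 14 gene sets, with colour for the kind of cell and shape for the passage. Androgenetic arrays stay near 0, while the fertilized array of passage 8 lies at -0.22 for oxidative phosphorylation and at 0.18 for heat shock proteins.

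Of 3 common reference genes Hprt passed the test, Gapdh did not, and Actb depended on the probe. Hprt changed by -0.51 ± 0.108 on the log2 scale (adjusted p = 0.00327). The brightest Actb probe rose by 0.58 ± 0.0703, but probes of this gene passed in opposite directions, and their mean changed by -0.30 (adjusted p = 0.0926). Among the autosomes the median change ran from -0.15 on chromosome 7 to 0.10 on chromosome 1 and was 0.06 on the X chromosome, small beside the quartiles over all genes. The Y chromosome had 2 measured genes, with a median of -0.17.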

How the data were processed

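Per the labels, total RNA (mirVana kit) was made into biotinylated cRNA (TotalPrep kit), and per the submitters' processing notes arrays were read with BeadStudio 3.1.3. The authors deposited unnormalized probe intensities, each with a detection p-value, and a table of log2 values of 12891 probes, quantile normalized by the authors. Here the intensities of the 6 arrays were corrected with neqc in limma 3.58.1 (R 4.3.3; background from detection p-values, offset 16, quantile normalization) and tested with lmFit and eBayes, two-sided. The offset shrinks changes of dim genes, and 3 arrays a group limit precision. The fit was tested on simulated data. Members and lists were chosen with earlier results of these data known. Most named genes were those that changed most in each list or role with groups that did not overlap, those that changed most over all genes, and a fixed list. Further members of some lists, such as Axin2, Nodal, Nog and Tfrc, were named outside this rule. Same-numbered arrays did not deviate together (residual r -0.033, 0.056 and -0.088), so they were not paired. Alternatives were background, scaling, filter, offset, probes and single arrays.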

Additional observations from a re-analysis of the deposited data

How the results depend on the processing

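The count of genes that passed ran from 4901 to 6238 over the processing alternatives, against 5955 of 8069 (73.8%). The ends of this range differ in the number of genes tested. They were 4901 of 6693 (73.2%) with detection required on all 6 arrays, and 6238 of 8808 (70.8%) in the authors' log2 values. The share that passed ran from 68.7% with no detection filter to 75.2% with all 8 arrays processed together. With 8069 genes tested, the count was 5436 to 6179 when single arrays were left out, and 5775 with the replicate number as a block. Leaving out 1 array gave 2610 to 2956 genes higher and 2826 to 3238 lower. At 2-fold, the count was 1655 without background correction, 1602 in the authors' log2 table and 1542 with detection required on all 6 arrays, against 2306, and 1085 to 1114 higher and 1202 to 1242 lower with single arrays left out. Requiring detection on all 6 arrays cut the genes at least 2-fold lower to 772 from 1211, since it drops genes undetected in one kind. Of the genes that passed, 16 passed in the opposite direction with the mean over a gene's probes, and at most 1 under any other alternative. The mean of Actb's probes changed by -0.30, where its brightest probe rose. The chemokine and cytokine median was -0.18 with detection on all 6 arrays. A list left without members under an alternative has no value there. The median of all genes ran from -0.097 to -0.007, so scaling moved it little. Dim genes near the detection floor have only bounds or compressed changes.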
